A study of Mus musculus with 12 samples.

Results

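The MHC class I presentation pathway is described here through 10 genes chosen by symbol, H2-K1, H2-D1, B2m, Tap1, Tap2, Tapbp, Psmb8, Psmb9, Psmb10 and Nlrc5. All 10 were among the 10073 genes of the deposited table, and all 10 passed the filter on low values, which left 10021 genes tested. The data are RNA levels in naive mouse CD4 T cells from 3 untreated mice, each giving 4 sorted populations, hence 12 libraries. The populations are called A to D, and a library is called by its population and mouse number. All mice carried the Tg(Nr4a1-EGFP)GY139Gsat transgene, in which Nr4a1 regulatory sequence drives the fluorescent reporter Nur77-GFP, and the Foxp3tm1Flv targeted mutation, which marks Foxp3-expressing cells red, on a C57/BL6 background; no group lacked either allele. The sources used here give no age. Cells of spleen and lymph nodes were gated as CD4+ Foxp3-RFPneg CD44lo. Population A was Nur77-GFPlo Ly6C+, population B had intermediate GFP and was Ly6C+, population C had intermediate GFP and lacked Ly6C, and population D was Nur77-GFPhi and lacked Ly6C. The reporter reads recent T cell receptor signalling, and the design asks how naive cells with stronger basal signalling differ in gene expression.

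Nearly every nucleated cell shows fragments of its own proteins on MHC class I molecules, where CD8 T cells can inspect them. Proteasomes cut the proteins, the TAP transporter carries the peptides into the endoplasmic reticulum, and tapasin helps to load them onto a heavy chain bound to beta 2-microglobulin. In lymphocytes the proteasome largely carries 3 exchanged catalytic subunits (the immunoproteasome), and the genes of the pathway share promoter elements read by NF-kappaB, by interferon regulatory factors, and by an enhanceosome that recruits Nlrc5.

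The promoters of the heavy chains and of B2m are shown because H2-K1 and H2-D1 varied together more closely than any other pair of members over the libraries, while B2m was the member least tied to the rest. That of Tap1 is shown because Psmb9 starts beside it on the other strand. The sequences are from RefSeq's table for GRCm38.p6, which held 8 of the 10 members, and each is the gene's own strand. Capitals mark matches, in order along the strand, to a kappaB motif (GGGANNNNCC), an interferon response motif (GAANNGAAA), the X2 box core (TGACG) and the Y box (CCAAT), each searched on both strands. The kappaB matches of each gene overlap one another, and the Y match of Tap1 and a further Y match of H2-D1 lie outside the printed stretches.
H2-K1, chr17:34000349-34000525, minus strand: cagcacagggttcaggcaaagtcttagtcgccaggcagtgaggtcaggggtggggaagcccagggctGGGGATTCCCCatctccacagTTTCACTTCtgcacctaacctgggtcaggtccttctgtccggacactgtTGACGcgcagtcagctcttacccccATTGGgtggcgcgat
H2-D1, chr17:35262856-35263032, plus strand: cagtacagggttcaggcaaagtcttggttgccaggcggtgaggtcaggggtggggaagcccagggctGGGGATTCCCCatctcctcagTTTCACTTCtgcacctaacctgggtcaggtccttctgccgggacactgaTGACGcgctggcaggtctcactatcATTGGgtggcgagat
B2m, chr2:122147517-122147686, plus strand: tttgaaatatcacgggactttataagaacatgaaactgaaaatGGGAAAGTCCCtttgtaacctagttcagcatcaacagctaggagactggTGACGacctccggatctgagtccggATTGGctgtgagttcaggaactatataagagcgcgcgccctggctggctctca
Tap1, chr17:34187386-34187555, plus strand: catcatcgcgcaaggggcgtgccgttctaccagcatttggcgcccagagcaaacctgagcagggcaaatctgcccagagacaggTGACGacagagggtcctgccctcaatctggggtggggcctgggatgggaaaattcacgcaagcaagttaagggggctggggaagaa

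Over 250 bases before the start, H2-K1 and H2-D1 held all 4 motifs, in the same order. Of 32851 windows of that length in the table, 0.06% held all 4. The aligned stretches of the 2 heavy chain genes were identical at 161 of 177 positions (91.0%). B2m held the kappaB, X2 and Y motifs but no match to the interferon motif in the spacing searched. Its printed stretch holds gaaactgaaa shortly before the kappaB match, which has the same GAA and GAAA letters at a wider spacing. The search therefore does not show that B2m lacks an interferon element. Taken singly the motifs were common, with the kappaB motif in 17.6% of windows, the interferon motif in 6.3%, the X2 core in 17.8% and the Y box in 33.8%. Tap1 and Psmb9 each held an X2 and a Y match, a combination found in 6.1% of windows, and 275 of the 300 bases of their promoter windows were the same stretch read on opposite strands. Tapbp held the Y box only, and no match was found for Psmb8 or Psmb10. These are matches of letters and not measured binding sites. Psmb9, Tap1, Psmb8 and Tap2 followed one another in the RefSeq gene order of chromosome 17, which also carries Tapbp, H2-K1 and H2-D1, while B2m lies on chromosome 2 and Psmb10 and Nlrc5 lie on chromosome 8.

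The libraries held 6.31 to 9.07 M reads (M is mega), recovered from the steps of the table's values. The CD4 T cell markers Cd3d, Cd3e, Cd3g, Cd4 and Cd28 summed to 1080 to 1185 RPKM (reads per kilobase of gene length and per M reads), and the CD8 T cell marker Cd8b1 lay between 9.94 and 15.96 RPKM. Several libraries went against their labels or stood apart. Nr4a1, the gene behind the reporter, had 58.7 to 67.8 RPKM in the libraries labelled D and 23.4 to 28.3 RPKM in those labelled C. It had 36.0, 73.3 and 64.6 RPKM in the libraries labelled B, and 57.7, 26.1 and 22.9 RPKM in those labelled A, in each case for mouse 1, 2 and 3. Thus the libraries labelled A1 and B1 did not follow the others of their populations, and C and B, which share the intermediate gate, differed. Cd5, a surface protein that follows T cell receptor signal strength, had 165 to 190 RPKM in the libraries labelled C, beside 156 and 177 RPKM in A3 and A2. It had 305 and 332 RPKM in B3 and B2, beside 299 to 322 RPKM in those labelled D, and 236 and 241 RPKM in B1 and A1. Ly6c1, which encodes a Ly6C protein, went against the gates of the middle populations, with 59.3 to 67.0 RPKM in the libraries labelled C, gated as negative, and 37.1 to 50.2 RPKM in those labelled B, gated as positive. The library labelled C3 held transcripts of antibody-secreting and B cells, with Jchain at 709 RPKM against 0.515 to 6.33 RPKM in the other libraries, Cd79a at 37.4 RPKM against at most 8.80 RPKM, and the class II invariant chain Cd74 at 209 RPKM against 3.12 to 19.7 RPKM. Haemoglobin Hbb-bs lay between 4.78 and 14.0 RPKM in the libraries labelled A1, B1, C2 and D2, and between 79.1 and 111 RPKM in the others. The part of these differences in the results below was not tested. Some results that rest on the libraries named are also given without them. Others are not, among them the correlations and the D against C values of H2-K1, H2-D1 and Tapbp, which were highest in C3.

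All 10 members were well expressed, and their order was nearly the same in every library. Since RPKM is a level per length, levels can be set side by side between genes as far as the listed gene lengths hold, from 806 bases for Psmb9 to 7936 bases for Tap1. B2m, the light chain shared by all class I molecules, averaged 1028 RPKM over the 12 libraries and ranked 19 among all genes. The heavy chains H2-D1 and H2-K1, which encode the classical class I proteins of this strain, averaged 778 and 683 RPKM and ranked 40 and 50. Next came Psmb8 at 200.5 RPKM, Psmb9 at 129.0 RPKM, the tapasin gene Tapbp at 119.8 RPKM and the transporter gene Tap2 at 115.9 RPKM. Nlrc5, the class I transactivator, averaged 92.3 RPKM, the other transporter gene Tap1 62.2 RPKM and Psmb10 53.9 RPKM. Adjacent genes in this order overlapped in their ranges for H2-D1 and H2-K1, Psmb9 and Tapbp, Tapbp and Tap2, and Tap1 and Psmb10. Within libraries H2-D1 nevertheless exceeded H2-K1 in 12 of 12, Tapbp exceeded Tap2 and Tap1 exceeded Psmb10 in 11 of 12, and Psmb9 exceeded Tapbp in 10 of 12.

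Variation between libraries was small. The coefficient of variation over the 12 libraries ran from 3.73% for Psmb8 to 8.76% for Psmb9, with a median of 4.97% over the 10 members. The median was 8.75% over all genes tested and 6.05% over the 1189 genes that averaged 50 RPKM or more. The highest library exceeded the lowest by a factor of 1.35 for Psmb10, 1.34 for Psmb9 and 1.27 for B2m, and by 1.13 to 1.19 for the other members. Reads behind a single value ranged from 423 to 609 for Psmb10 and from 652 to 975 for Psmb9, the most thinly covered members, and from 16726 to 23570 for H2-K1.

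**Figure D1:**
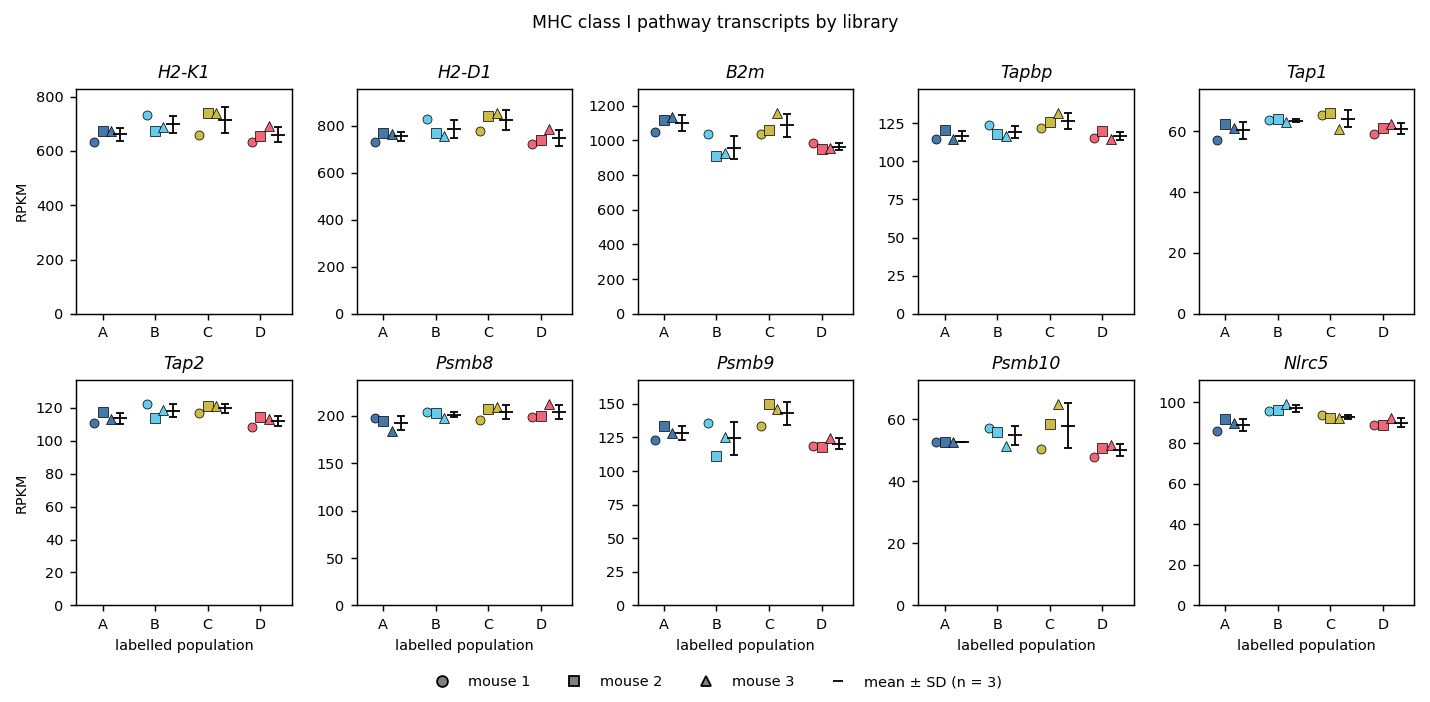
RPKM of the 10 members (vertical axes from 0) in the populations as labelled, A to D; points are libraries, with a symbol per mouse, and bars are the mean ± SD of 3 libraries. B2m sits lowest in B2, B3 and the libraries labelled D, the mean of Psmb9 is highest in those labelled C, and Psmb8 hardly moves.

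Between the GFP-high and the GFP-intermediate gates of Ly6C-negative cells, all 10 members had a lower fitted level in libraries labelled D than in those labelled C, by 0.201% to 15.7%, and none passed the test. The largest differences were in Psmb9 and Psmb10, catalytic subunits of the immunoproteasome, followed by B2m. At an adjusted p of 0.05 from limma over all genes, 0 of 10 members were called in this comparison, where 0.00998% of all genes were, and limma-voom on the recovered reads also called 0. At an unadjusted p below 0.05 there were 6 members, all lower in the libraries labelled D, against 18.1% of all genes in either direction. That count depends on single libraries. It was 2 without the library labelled C3 (1605 of 10021 genes) and 2 without D1 (1508 genes). It was 3 without C2 (1587 genes), 3 without D2 (1368 genes) and 4 without D3 (1497 genes). Without C1 it was 7 (2034 genes), and without any 1 library labelled A or B it was 5 or 6. The median log2 difference of the 10 members was -0.11, against 0.013 over all genes. Under quantile normalization 3 members had an unadjusted p below 0.05, where 18.2% of all genes did. The median of the members was then -0.061, with 8 of 10 below 0 and H2-K1 and Psmb8 slightly above. With the trends of GC content and length removed, 7 members had an unadjusted p below 0.05, where 19.1% of all genes did. All 10 were below 0 in that fit, with a median of -0.14, and none was called. Levels of marker genes also differed in this comparison. The 4 of 4 regulatory T cell markers Foxp3, Il2ra, Ctla4 and Ikzf2 summed to 34.1 to 43.6 RPKM in libraries labelled D and to 8.20 to 13.4 RPKM in those labelled C. The sum was not high in D alone, with 9.17 to 45.66 RPKM in libraries labelled A (highest in A1) and 10.25 to 41.8 RPKM in those labelled B. A sum does not show that each of these genes moved, and the cells were gated as Foxp3-RFPneg. Cd8b1, the 1 of 2 CD8 T cell markers with values, had 10.2 to 11.2 RPKM in D and 12.7 to 15.96 RPKM in C. Ly6c1 differed as well, with 38.2 to 48.4 RPKM in D and 59.3 to 67.0 RPKM in C, although both were gated as lacking Ly6C. The part of any of these in the result was not tested.

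Psmb9, which replaces the caspase-like subunit of the standard proteasome, had 119, 118 and 125 RPKM in libraries labelled D, against 133, 150 and 146 RPKM in those labelled C, for mouse 1, 2 and 3. Every library labelled D lay below every library labelled C. The log2 difference was -0.25 ± 0.07 (SE, n = 3 each, limma adjusted p = 0.11), which is 15.7% lower with a 95% interval of -23.9% to -6.53%. Psmb9 was called when the 6 libraries were fitted alone (adjusted p = 0.0424, where 4.8% of genes were called). It was also called without the library labelled B1 (adjusted p = 0.0418, 3.97% of genes) and without those labelled A1 and B1 (adjusted p = 0.0244, 7.63% of genes). Its adjusted p lay between 0.0244 and 0.283 over 27 alternatives. The same gene was also among the lowest in other libraries, since its 6 lowest libraries were those labelled A1, B2, B3, D1, D2 and D3. Those are also the 6 with the most Nr4a1 transcript, 57.7 to 73.3 RPKM, against 22.9 to 36.0 RPKM in the others. No other member matched fully: of the 6 lowest libraries, 5 were among those 6 for H2-D1, B2m, Tap2, Tapbp and Psmb10, 4 for H2-K1 and Tap1, and 3 for Psmb8 and Nlrc5. How many of all genes match in this way was not counted. These counts therefore show no tie of the members to Nr4a1 beyond that of other genes.

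B2m had 985, 952 and 958 RPKM in libraries labelled D, against 1037, 1062 and 1160 RPKM in those labelled C. The groups did not overlap, but the gap between D1 and C1 was small beside the spread within C. The log2 difference was -0.17 ± 0.06 (SE, n = 3 each, limma adjusted p = 0.184), or 11.1% lower. Without the library labelled C3 it was -0.12 (adjusted p = 0.393), and under quantile normalization it was -0.022 (adjusted p = 0.835).

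The heavy chains differed by similar amounts with overlapping groups. H2-D1 had 721, 739 and 787 RPKM in libraries labelled D, against 775, 839 and 855 RPKM in those labelled C, a log2 difference of -0.14 ± 0.06 (adjusted p = 0.236) that was -0.029 (adjusted p = 0.725) under quantile normalization. H2-K1 had 634, 656 and 690 RPKM in libraries labelled D, against 659, 740 and 741 RPKM in those labelled C, a log2 difference of -0.11 ± 0.06 (adjusted p = 0.359). Both genes were lower in D than in C within each of the 3 mice.

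For peptide supply, Tapbp and Tap2 lay apart between the groups and Tap1 did not. Tapbp had 115, 120 and 115 RPKM in libraries labelled D, against 122, 126 and 132 RPKM in those labelled C (log2 difference -0.12 ± 0.04, adjusted p = 0.189). Tap2 differed by -0.09 ± 0.04 (adjusted p = 0.273) and Tap1 by -0.07 ± 0.05 (adjusted p = 0.448) on the log2 scale. In all, 4 members (B2m, Tap2, Tapbp and Psmb9) did not overlap between the groups and were lower in D, where 9.89% of all genes did so.

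Of the remaining proteasome members, Psmb10, which replaces the trypsin-like subunit, had 47.9, 50.7 and 51.6 RPKM in libraries labelled D, against 50.4, 58.6 and 64.8 RPKM in those labelled C. The spread within C was wide, and the groups overlapped. Its log2 difference was -0.20 ± 0.08 (adjusted p = 0.191) and -0.12 without the library labelled C3 (adjusted p = 0.422). Psmb8, which replaces the chymotrypsin-like subunit, had 199, 200.1 and 212 RPKM in libraries labelled D, against 196, 207 and 209 RPKM in those labelled C. Its log2 difference was -0.0029 ± 0.0455 (adjusted p = 0.985, 95% interval of the change -6.81% to 6.88%), and its sign depended on which library was left out. Nlrc5 had 89.0, 88.8 and 92.5 RPKM in libraries labelled D, against 94.0, 92.2 and 92.3 RPKM in those labelled C, a log2 difference of -0.04 ± 0.04 (adjusted p = 0.604).

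**Figure D2:**
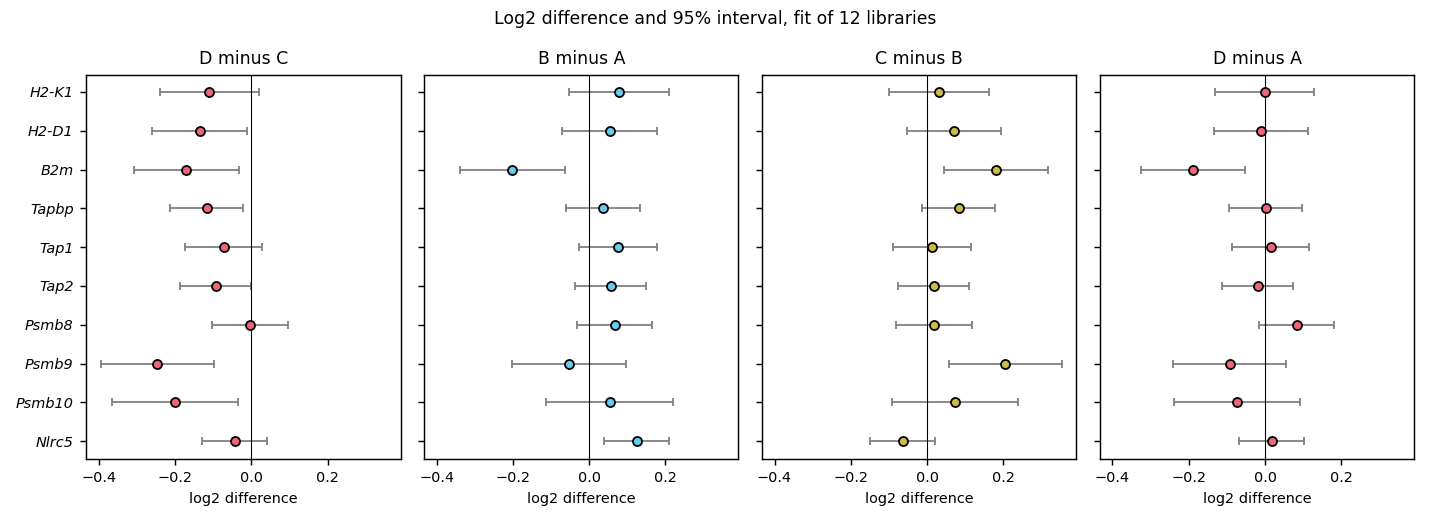
Log2 difference of each member (points) with its 95% interval (bars) from the fit of all 12 libraries, in 4 comparisons; the vertical line is no difference. All members lie below 0 in D minus C, and in B minus A and D minus A only the interval of B2m lies wholly below 0.

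Between the GFP-intermediate and GFP-low gates of Ly6C-positive cells, the light chain and the transactivator stood out in opposite directions, and neither passed the test over all genes. In libraries labelled B, B2m was 13.0% lower than in those labelled A and Nlrc5 was 9.04% higher. The other 8 members had log2 differences between -0.05 and 0.08. No member was called (0 of 10, limma and limma-voom), where 2.23% of all genes were, and 2 had an unadjusted p below 0.05, where 23.1% of all genes did. Non-overlapping groups were found for 3 members, B2m lower and Tap1 and Nlrc5 higher in B, where 29.2% of all genes did not overlap. Ly6c1 differed here too, with 37.1 to 50.2 RPKM in B and 58.1 to 72.6 RPKM in A, although both were gated as Ly6C+.

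B2m had 1036, 911 and 928 RPKM in libraries labelled B, against 1050, 1118 and 1134 RPKM in those labelled A. The nearest pair came from mouse 1, whose libraries stood apart. The log2 difference was -0.20 ± 0.06 (SE, n = 3 each, limma adjusted p = 0.0961). Without the library labelled B1 it was -0.26 (adjusted p = 0.0462, where 2.22% of genes were called), and without those labelled A1 and B1 it was -0.29 (adjusted p = 0.0101, where 10.9% of genes were called). Under quantile normalization it was -0.11 (adjusted p = 0.151). With the trends of GC content and length removed it was -0.0093 (adjusted p = 0.976). B2m has a GC content of 41.2%, against 52.5% to 57.1% in the other members.

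Nlrc5 had 95.9, 96.3 and 99.1 RPKM in libraries labelled B, against 85.7, 91.6 and 89.8 RPKM in those labelled A. Its log2 difference was 0.12 ± 0.04 (adjusted p = 0.0969), and with the trends of GC content and length removed it was 0.025. That removal also turned 6 positive differences negative (H2-K1, H2-D1, Tap1, Tap2, Tapbp and Psmb10) and left 0 members with an unadjusted p below 0.05, where 11.4% of all genes were.

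At the intermediate GFP gate, libraries labelled C were compared with those labelled B, which differ in the Ly6C gate. Both groups also enter the GFP comparisons above. B2m was 13.4% higher and Psmb9 15.3% higher in C, and the other members differed by -4.34% to 5.92%. None of the 10 was called by limma or limma-voom (0.00998% of all genes were), and these 2 members had an unadjusted p below 0.05, where 13.4% of all genes did. The log2 difference was 0.18 ± 0.06 for B2m and 0.21 ± 0.07 for Psmb9 (adjusted p = 0.287 for both). B2m did not overlap between the groups, with C higher, and Nlrc5 did not overlap with C lower, where 15.1% of all genes did not overlap. Without the library labelled B1 both B2m (0.24, adjusted p = 0.0423) and Psmb9 (0.27, adjusted p = 0.0448) were called, with 3.85% of all genes. Under quantile normalization B2m was at 0.035 (adjusted p = 0.784), and with the trends of GC content and length removed at 0.097 (adjusted p = 0.565). The lowest B2m value in C, 1037 RPKM in C1, is close to the highest in B, 1036 RPKM in B1. Beside this stands the Ly6c1 transcript, which was higher in C than in B and so ran against the gate.

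Across the ends of the sort, libraries labelled D differed from those labelled A mainly in B2m, which was 12.3% lower. Its log2 difference was -0.19 ± 0.06 (adjusted p = 0.175), and without the libraries labelled A1 and B1 it was -0.22 (adjusted p = 0.0243, where 8.84% of genes were called). Under quantile normalization it was -0.10 (adjusted p = 0.24), and with the trends of GC content and length removed it was -0.088 (adjusted p = 0.592). Psmb8 had the largest positive value, 0.08 ± 0.05 (adjusted p = 0.338). The other 8 members lay between -0.09 and 0.02 on the log2 scale. No member was called by limma or limma-voom (0.00998% of all genes were), and 1 had an unadjusted p below 0.05, where 19.0% of all genes did. Non-overlapping groups were seen for B2m and Psmb10, lower in D, and for Psmb8, higher in D, where 25.8% of all genes did not overlap. The comparison shares its libraries with the D against C and the B against A comparisons.

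The GFP step could be compared between the Ly6C gates by testing the D minus C difference against the B minus A difference. For 9 of 10 members the D minus C step was the more negative one. No member passed the test, and 0.0% of all genes did. Nlrc5 had the smallest p (log2 difference of the steps -0.17 ± 0.06, limma adjusted p = 0.217), and Psmb10 had -0.25 ± 0.11 (adjusted p = 0.303). At an unadjusted p below 0.05 there were 7 members, all negative, where 15.0% of all genes passed. With the trends of GC content and length removed there were 0 members, where 7.39% of all genes passed. All 10 differences were negative in that fit, with adjusted p values of 0.723 or more. Without the library labelled C1, Psmb10 was called (-0.35, adjusted p = 0.0484), with 2.6% of all genes. Without those labelled A1 and B1, 1 of 10 members had an unadjusted p below 0.05, where 10.7% of all genes did.

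Ratios within a library show the same members without the scaling between libraries. H2-K1 over H2-D1 was nearly fixed, between 0.85 and 0.908 in all 12. Ambiguous reads limit this ratio in part: 12.8% of the 50-base words of H2-D1 and 9.6% of those of H2-K1 occur in other genes, most often in H2-Q genes and in each other. The light chain was less tightly tied to the heavy chains. B2m over the sum of H2-K1 and H2-D1 was 0.664, 0.633 and 0.643 in libraries labelled B, against 0.769, 0.775 and 0.789 in those labelled A. This ratio did not overlap between B and A with mouse 1 included. It was 0.726, 0.682 and 0.648 in libraries labelled D, against 0.723, 0.673 and 0.727 in those labelled C, and those groups overlapped. B2m has a GC content of 41.2%, against 54.3% in H2-K1 and 55.9% in H2-D1. A GC trend between libraries would not cancel in the ratio, which was not recomputed with such trends removed. With them removed, the log2 difference of B2m between B and A was -0.0093, as given above.

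Within the immunoproteasome the subunits did not keep a fixed ratio. Psmb9 over Psmb8 was 0.596, 0.589 and 0.588 in libraries labelled D, against 0.681, 0.721 and 0.698 in those labelled C. In libraries labelled B it was 0.666, 0.550 and 0.633, against 0.622, 0.686 and 0.697 in those labelled A. The D and C groups lay apart and the B and A groups overlapped, with the library labelled A1 the lowest of its group and B1 the highest of its own.

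**Figure D3:**
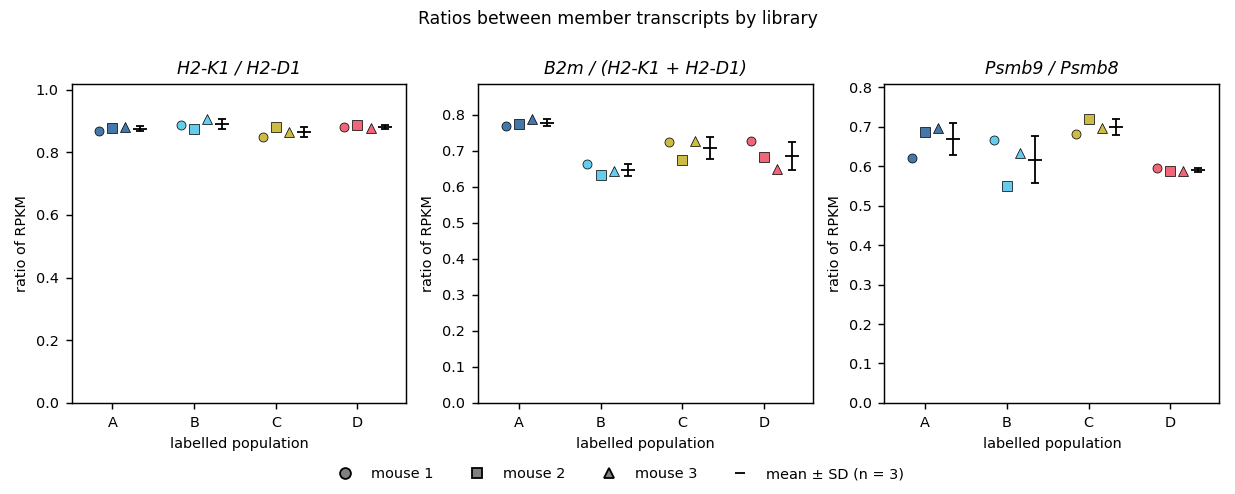
Ratios of RPKM within each library (vertical axes from 0) for 3 pairs of members, by labelled population A to D; points are libraries, with a symbol per mouse, and bars are mean ± SD of 3 libraries. The H2-K1 to H2-D1 ratio is flat, the B2m ratio is highest in A, and the Psmb9 to Psmb8 ratio is higher in all libraries labelled C than in all labelled D.

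The immunoproteasome subunits exceeded their standard counterparts in every library. Psmb8 was 5.89 to 8.82 times Psmb5, Psmb9 was 2.4 to 2.94 times Psmb6, and Psmb10 was 3.18 to 4.52 times Psmb7. Summed, the 3 exchanged subunits were 3.79 to 4.41 times the 3 standard ones. The ratio of Psmb10 to Psmb7 rests in large part on their listed lengths, 1270 and 3289 bases. Their reads in a library were closer, at 423 to 609 for Psmb10 and 279 to 463 for Psmb7. The summed ratio holds the same Psmb7 values. Psmb5 is uncertain for another reason, since 54.1% of its 50-base words occur in other genes, mostly in Gm3375. None of Psmb5, Psmb6 and Psmb7 was called in any comparison by limma or limma-voom, and Psmb6 in C against B was the 1 value with an unadjusted p below 0.05. Psmb7 had 14.9 ± 1.15 RPKM in libraries labelled D and 13.9 ± 0.787 RPKM in those labelled C, and Psmb6 had 48.5 ± 1.24 and 51.3 ± 5.12 RPKM in the libraries labelled D and C (SD, n = 3 each).

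**Figure D4:**
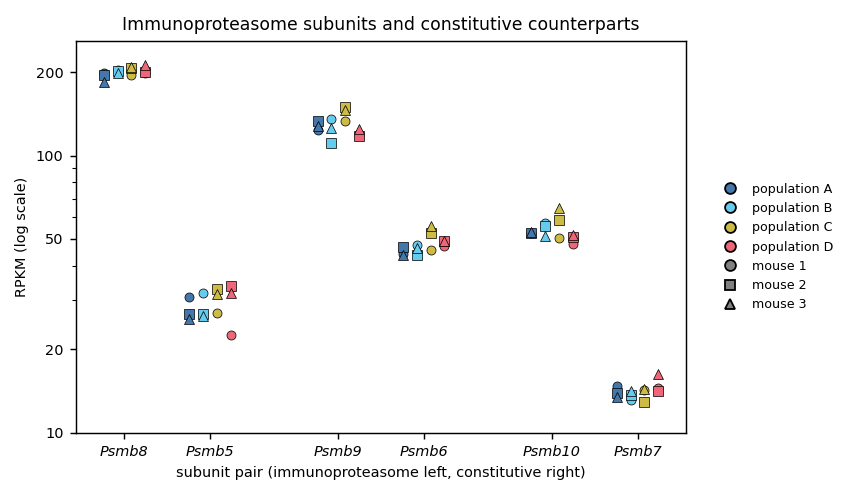
RPKM on a log scale of the immunoproteasome subunits and their standard counterparts in each library; colours are labelled populations A to D from left to right and symbols are mice. Each immunoproteasome subunit lies above its counterpart in all 12 libraries.

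The difference between the members and the other proteasome genes was not tested. Of the 11 other subunits of the core particle, 10 had a positive log2 difference in D against C, with a median of 0.08. Of the 21 subunits of the regulatory cap, 16 did, with a median of 0.09. None of these was called by limma or limma-voom, and 2 core and 4 cap genes had an unadjusted p below 0.05, all higher in D, shares near the 18.1% over all genes. Psma6, of the outer core ring, had 64.2 ± 1.95 RPKM in libraries labelled D and 57.2 ± 4.53 RPKM in those labelled C (adjusted p = 0.175), and the cap ATPase gene Psmc4 had 31.7 ± 1.67 and 28.1 ± 1.15 RPKM in those labelled D and C (adjusted p = 0.145). The 10 activator and assembly genes, which include Psme1 and Psme2 of the interferon-inducible activator, were balanced in D against C, with 5 of 10 negative, none called by limma or limma-voom and 0 at an unadjusted p below 0.05.

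Among 17 other class I and class I-like genes (the list without H2-Ke6, an enzyme gene of the MHC region taken off after its values were seen) none was called in D against C by limma or limma-voom in the fit of 12 libraries. There, 11 of 17 had a negative difference (median -0.05). At an unadjusted p below 0.05 there were 3 higher and 4 lower in D, where 18.1% of all genes were in either direction. H2-Q4 and H2-Q7, nonclassical heavy chain genes, had levels of 447 to 517 and 239 to 301 RPKM over the libraries and are named here after their values were seen. The smallest p values were those of H2-Q10 and Fcgrt, both lower in D. H2-Q10 had 2.375 ± 0.552 RPKM in D and 3.88 ± 0.776 RPKM in C (log2 difference -0.61, limma adjusted p = 0.106). Fcgrt had 1.63 ± 0.271 and 2.53 ± 0.451 RPKM in D and C (-0.51, adjusted p = 0.139). Without the libraries labelled A1 and B1, H2-Q10 was called (adjusted p = 0.0425, where 7.63% of genes were). H2-Q2 was the exception in size, with a log2 difference of 1.29 ± 0.45 (adjusted p = 0.16) over 12 libraries. It had 6.35, 5.43 and 5.77 RPKM in libraries labelled D, against 2.31, 1.72 and 2.27 RPKM in those labelled C, and was higher in D when the 6 libraries were fitted alone (log2 1.29 ± 0.12, adjusted p = 0.000651). In libraries labelled B it had 1.79, 7.94 and 8.11 RPKM, against 5.31, 2.66 and 1.59 RPKM in those labelled A, so the mouse 1 libraries again went the other way. As a heavy chain gene with near copies, its reads may be shared.

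Of 13 loading and trimming genes, 0 were called in D against C by limma or limma-voom, and 3 had an unadjusted p below 0.05, beside 18.1% over all genes. The peptidase gene Blmh had 16.8 ± 0.549 RPKM in libraries labelled D and 13.8 ± 0.765 RPKM in those labelled C (log2 difference 0.28, adjusted p = 0.224). Without the libraries labelled A1 and B1 it was called higher in D than in C (adjusted p = 0.0297), in B than in A (adjusted p = 0.0177) and in D than in A (adjusted p = 0.00717). Tpp2, a cytosolic peptidase, was lower in B than in A, with 28.4 ± 1.04 RPKM in libraries labelled B and 37.2 ± 0.689 RPKM in those labelled A (log2 difference -0.38 ± 0.09, adjusted p = 0.0463). The call was lost with the mouse as a block (adjusted p = 0.0671) and without the libraries labelled A1 and B1 (adjusted p = 0.0616). The chaperone gene Calr had 364.5 RPKM in the library labelled C3 and 176 to 193 RPKM in the others, beside the Jchain level of that library.

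Upstream, 28 regulators of class I expression and 33 interferon response genes held no call in D against C by limma or limma-voom. At an unadjusted p below 0.05, 6 regulators were higher in D and none lower, and 3 interferon response genes were higher and 5 lower, beside 18.1% over all genes. Suz12, of the Polycomb complex that can silence class I genes, was lower in B than in A (34.3 ± 1.31 RPKM in libraries labelled B and 41.5 ± 0.743 RPKM in those labelled A, adjusted p = 0.0487). That call was lost with the mouse as a block (adjusted p = 0.0711) and without the libraries labelled A1 and B1 (adjusted p = 0.0845). When the 6 libraries were fitted alone, the kinase gene Jak2 was higher in D (50.4 ± 2.01 RPKM in D and 34.9 ± 2.98 RPKM in C, adjusted p = 0.00354). Of the interferon-induced GTPase genes, Gbp2 (log2 difference -0.24 ± 0.05, adjusted p = 0.0295) and Tgtp1 (-0.38 ± 0.08, adjusted p = 0.0381) were lower in D. The class II gene H2-Oa was higher in D in the same fit (4.46 ± 0.377 RPKM in libraries labelled D and 2.16 ± 0.365 RPKM in those labelled C, adjusted p = 0.00449), and 4.8% of all genes were called in it.

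Members varied together to an uneven degree. As a description over 12 libraries, which share 3 mice and the same processing, Pearson's r between pairs of members had a median of 0.51 over 45 pairs and was above 0.5 in 24. The highest was 0.96, for H2-K1 with H2-D1, whose printed promoters are nearly alike and whose reads may be shared. Tap1 and Psmb9, which start from one stretch, had an r of 0.37. B2m was in all 3 pairs with a negative r, with Nlrc5, Psmb8 and Tap1 (-0.35 to -0.13). Outside the pathway lists, the genes most like the mean scaled level of the 10 members over the 12 libraries were Cdt1 (r = 0.98), Inf2 (0.95), Ier2 (0.95), Ddx27 (0.95) and Rad9a (0.94). Cdt1 had 7.14, 7.90 and 8.41 RPKM in libraries labelled D, against 8.75, 9.78 and 9.86 RPKM in those labelled C. The genes most like Nlrc5 alone were Tnfrsf12a (r = 0.90), Trim26 (0.89), Smg5 (0.88), Ppdpf (0.86) and Helz2 (0.86). Both sets were picked as the highest r over all genes tested outside the lists, so their size alone shows no tie. Cdt1 and the mean scaled level were both highest in the library labelled C3. The proliferation marker Mki67 had 17.0 RPKM there, against at most 3.27 RPKM in the other libraries. The part of C3 in these values was not tested.

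Reads of neighbouring genes bear on some values. The SMART-seq v4 kit does not mark strand, and the sources used here do not give strand use in counting. In GENCODE M21, exons of other genes, nearly all on the opposite strand, cover 29.0% of the exon bases of Tapbp, 18.5% of Tap2, 14.7% of Psmb8 and 5.8% of Psmb9, the last shared with Tap1. Reads of these genes and of their antisense neighbours there cannot be told apart. In bulk RNA, fewer cells of a kind and less RNA per cell cannot be told apart either.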

How the data were processed

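RNA of 12 libraries was measured. Per the labels' protocols, RNA of cells sorted into lysis buffer was isolated (Quick-RNA MicroPrep), and SMART-seq v4 and NexteraXT kits made cDNA and libraries. The submitters' processing notes name STAR and the builds mm9 and mm10 without a role. The sources used here do not give the counting tool or annotation, and printed coordinates are those of RefSeq's GRCm38.p6 promoter table. The authors deposited RPKM values, per the file headers, for 10073 genes. Multiplied by length and depth, 100.0% of 7604 to 8497 values examined per library were whole reads within 0.1 read, which gave the depths.

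Genes averaging 0.5 RPKM or more (10021) were tested with limma 3.58.1 in R 4.3.3, using a mean-variance trend, on log2(RPKM + 0.5) in one model of 12 libraries without a block; this scale understates differences of low genes. Benjamini-Hochberg adjustment was made over all genes of a comparison, at a threshold of 0.05. The script was tested on simulated data. P-values measure the spread between the libraries of 3 mice within a labelled population, pooled over all populations. That spread includes the libraries that stood apart, also in comparisons that do not use them. The labels give each library's mouse, which pairs the populations. Same-numbered libraries did not deviate together on average (mean r -0.07 over 18 pairs, from -0.613 to 0.379). These pairs include the libraries labelled A1 and B1, so the mean does not show that the pairing is without effect. Fits with the mouse as a block are among the alternatives. Genes named were all members, the standard catalytic subunits, up to 4 called genes of each pathway list by p (otherwise up to 2), and the 5 genes most like the members' mean or Nlrc5. The members and lists were chosen with earlier results of these data known. GC content was available for 98.3% of genes tested.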

Additional observations from a re-analysis of the deposited data

How the results depend on the processing

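Over 28 alternatives, 1360 fitted differences of members were recomputed. Of these, 72 changed sign, none of them called, and all with a log2 difference of at most 0.11 in size in the fit as reported. Of 488 alternatives of reported values, 462 kept their direction and side of the threshold. Shares of all genes called are given in brackets. In D against C the members called were 0 as reported. Psmb9 alone was called with the 6 libraries alone (4.8%), and with those and a replicate block (6.4%). It was also the 1 member called without the libraries labelled A1 and B1 (7.63%), and without those labelled A1, B1 and C3 (8.39%). In B against A the members called were 0 as reported and 1 (B2m) without those labelled A1 and B1 (10.9%). B2m was also called without A1 and B1 among the compared libraries alone (19.0%), and without those labelled A1, B1 and C3 (16.3%). In C against B they were 0 as reported and 2 (B2m and Psmb9) without those labelled A1 and B1, with C3 (7.74%) or without it (8.71%). In D against A they were 0 as reported and 1 (B2m) under the same 3 settings as in B against A (8.84%, 13.6% and 13.5%). Leaving out 1 library at a time gave 0 to 1 members in D against C and in B against A, 0 to 2 in C against B, and 0 to 1 for the difference of steps. The libraries that decide are B1 and, for the steps, C1. Without B1 the shares of all genes were 3.97% in D against C, 2.22% in B against A and 3.85% in C against B. Without C1 the share was 2.6% for the steps. The log2 difference of Psmb8 in D against C ran from -0.033 to 0.015 over these. Under quantile normalization it was 0.028 and that of H2-K1 was 0.0069, and without A1, B1 and C3 that of Psmb8 was 0.015; the cause was not tested.

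With all 12 libraries, the replicate block of mouse left the members called at 0 in every comparison, and the 2 calls lost in the pathway lists stand in the report. The difference of steps needs all 4 populations and was not fitted on 6 libraries. Depth limits Psmb10 and Psmb9 most, with as few as 423 and 652 reads in a library. Without A1 and B1 those arms hold 2 libraries each. The alternatives without A1 and B1 within the compared libraries, without A1, B1 and C3, and with 6 libraries and a block were chosen after seeing the data.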
